A study of Homo sapiens with 4 samples.

Results

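The RBM genes encode RNA-binding motif proteins, and they were compared here between the nuclear and the cytoplasmic fraction of HEK293T, an established line derived from embryonic kidney that also expresses SV40 large T antigen. Members were the protein-coding genes whose symbol begins with RBM and a digit, with RBM14 and symbols with a hyphen left out by the rule. The rule found 35 genes among the 51740 rows of the table, of which 19041 were protein-coding. The rule used names only and no measured value. All 4 libraries came from wildtype cells that had been crosslinked with formaldehyde before lysis, with 2 biological replicates of each fraction, and the study asked with them where RNAs reside in the cell. Each library was prepared from 400 ng of RNA with a stranded kit that depletes ribosomal RNA, and it was read for 100 nt from both ends. Because equal masses entered every library preparation, a value is relative to the RNA of its fraction and not an amount per cell. In bulk fractions, fewer cells and less RNA per cell cannot be told apart. Unless stated otherwise, fold changes are given with the authors' scaling of the libraries, so they are not ratios of shares of the library totals. The cells are 1 established line, grown without any further treatment, so no other cell type is represented.

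Most RBM proteins carry at least 1 RNA recognition motif, a small fold that lies against single-stranded RNA, and most of the proteins themselves work in the nucleus. Several are parts of the spliceosome or choose which exons are kept. Others sit in the exon junction complex, which marks spliced mRNA, in the adaptors that hand nuclear RNA to the exosome for decay, in the complex that writes N6-methyladenosine, or in nucleolar ribosome synthesis. A smaller set acts on finished mRNA, through its stability or its translation. What was measured here is where the mRNA and pre-mRNA of each gene lay, not where its protein works.

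Reads were counted over exons and introns together, so unspliced RNA adds to a gene's value in both fractions, and the 2 cannot be separated in these values. Near-identical stretches between members limit how reads can be assigned, and they are shown first because 1 of the aligned pairs holds them. RBM4 (chr11:66638667-66668374, plus strand) and RBM4B (chr11:66664998-66677887, minus strand) lie tail to tail on hg38, and their proteins, of 364 and 359 residues, were identical at 91.1% of 358 aligned positions. Along 1074 aligned coding bases of the canonical transcripts in GENCODE 44, 87.8% were identical, and the longest run without a difference was 198 bases. Of 707 windows as long as a read, 119 held no difference. The line that follows is 1 such window, coding bases 28 to 127 of both genes, and a read pair that lay in such stretches with both mates could not be assigned to one or the other.

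RBM4 and RBM4B, coding bases 28 to 127: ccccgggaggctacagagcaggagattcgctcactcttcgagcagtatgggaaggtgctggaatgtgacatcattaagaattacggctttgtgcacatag

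The window with the most differences had 24, and it is shown for both genes with the differing bases in capitals. Reads from such a stretch tell the genes apart.

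RBM4, coding bases 708 to 807: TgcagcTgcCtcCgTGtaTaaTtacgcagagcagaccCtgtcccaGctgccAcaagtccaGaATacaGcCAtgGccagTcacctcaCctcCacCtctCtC
RBM4B, coding bases 705 to 804: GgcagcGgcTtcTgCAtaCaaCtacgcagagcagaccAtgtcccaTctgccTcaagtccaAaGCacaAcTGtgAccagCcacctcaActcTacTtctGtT

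None of the other 7 pairs of related members that were aligned had a window of that length without a difference. Their longest identical runs were 9 to 23 bases.

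The deposited table gives 1 mean normalized count, 1 log2 fold change and 1 standard error per gene. Counts of single libraries were recovered from these values as whole numbers, and each of the 35 members had exactly 1 solution. For 33 of them the mean, fold change and standard error were used, and for RBM43 and RBM46, with few counts, the mean alone left 1 combination. The recovered counts summed to 22702782 and 19748770 in the deeper and the shallower nuclear library, and to 16636472 and 15270228 in the deeper and the shallower cytoplasmic library. A normalized count is a count divided by its library's size factor. Rows with recovered counts held 78.2% of the normalized counts, so these sums are not library depths and do not compare the depth of the fractions. The fractions were checked by their known RNAs. MALAT1, an lncRNA of nuclear speckles, was at 28571 and 33938 in the nuclear libraries and at 3153 and 2485 in the cytoplasmic ones. NEAT1, the lncRNA of paraspeckles, was at 5613 and 4627 against 606 and 596. Of 79 ribosomal protein genes found by name, 78 were called cytoplasmic and 0 nuclear.

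RBM genes fell on both sides. Of the 35 members, 34 had a DESeq2 adjusted p, and RBM46 had none. With the cut-off of the study, an adjusted p of at most 0.01, 11 of the 34 were higher in cytoplasmic RNA and 10 in nuclear RNA, while 13 did not pass. Across all 23333 tested genes the same threshold called 25.9% cytoplasmic and 26.5% nuclear, and across the 15336 tested protein-coding genes it called 35.6% and 28.4%. The shares of the members, 32.4% and 29.4%, were near those of protein-coding genes. Normalized counts summed on average to 1.81e+07 for nuclear and 2.87e+07 for cytoplasmic libraries. A gene with the same share of both totals therefore stands at 0.66 with the authors' size factors. When library totals were set equal in place of these size factors, every log2 fold change was 0.66 lower. The split became 8 cytoplasmic and 20 nuclear of the 34 members, beside 3777 and 8929 of the 23333 tested genes. With this scaling both shares of the members were above those of all tested genes. The shares of protein-coding genes were not counted with it. Recovered rows, 99.3% of the rows with a fold change, held 78.2% of the normalized counts. The 56 tested genes with a mean over 20000 were not among them, so a few abundant genes weigh on the library totals. With the authors' size factors the members' median log2 fold change, cytoplasmic over nuclear, was -0.15, with an interquartile range of -1.32 to 1.21, against 0.11 for tested protein-coding genes. The members ran from 2.86 for RBM3 to -2.41 for RBM6, and 9 cytoplasmic and 8 nuclear calls were past 1 on the log2 scale. In 34 of the 35 members both libraries of one fraction lay above both of the other, as they did in 85.9% of tested genes with recovered counts.

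**Figure D1:**
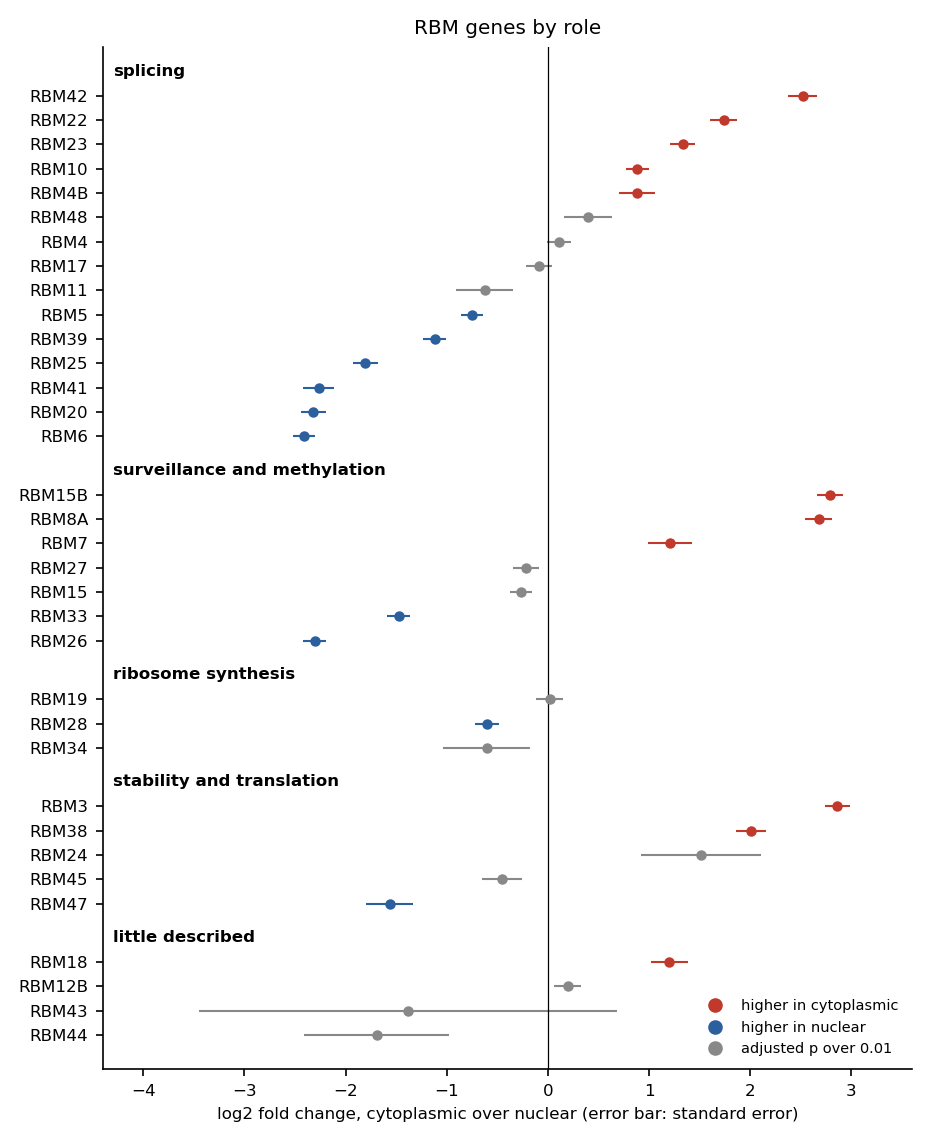
Log2 fold change, cytoplasmic over nuclear, of the 34 tested RBM genes, grouped by role, with the standard error as the bar. Each of the 2 larger groups, splicing and surveillance with methylation, holds genes on both sides of 0, from 2.79 for RBM15B to -2.41 for RBM6.

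Replicates lay close to each other for nearly all members. Among the 31 members with a mean normalized count over 50, the 2 nuclear libraries differed by a median of 0.061 on the log2 scale and by at most 0.32, in RBM18. The 2 cytoplasmic libraries differed by a median of 0.12. RBM34 stood apart with a difference of 0.89 between them, and without it the largest was 0.32. A test of the recovered counts with limma called 12 members cytoplasmic and 13 nuclear at an adjusted p of at most 0.01, where it called 28.0% and 31.1% of the 23108 genes in its fit. All 21 members called in the deposited table were called in the same direction by limma. The 4 further calls by limma were RBM24 on the cytoplasmic side and RBM45, RBM11 and RBM44 on the nuclear side.

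**Figure D2:**
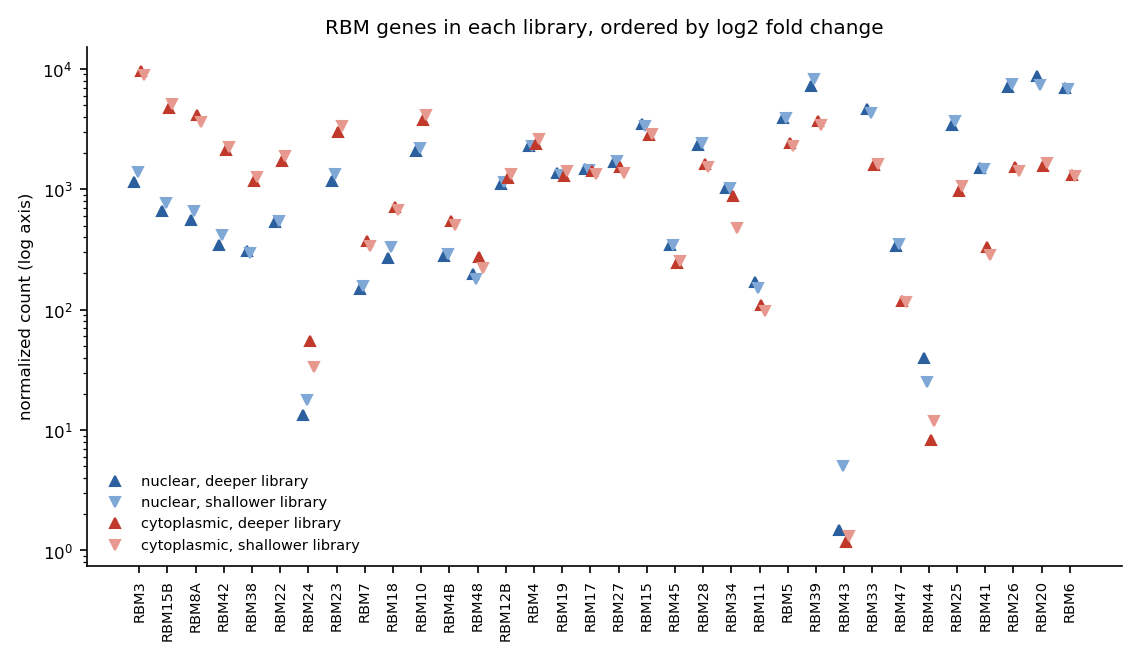
Normalized count of the 34 tested RBM genes in each of the 4 libraries, on a log axis, with genes ordered from the highest to the lowest log2 fold change. Blue marks are nuclear and red marks are cytoplasmic libraries, and the only gene whose fractions overlap is RBM19.

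The splicing group was the largest, with 15 members, of which 5 were called cytoplasmic, 6 nuclear and 4 neither. The calls became 3 cytoplasmic and 9 nuclear with equal library totals. The median log2 fold change of the group was -0.09. For this and the later groups, the background is 35.6% cytoplasmic and 28.4% nuclear among tested protein-coding genes. With equal library totals the background is 3777 cytoplasmic and 8929 nuclear of all 23333 tested genes. RBM42, a protein found in the spliceosome before its activation, had normalized counts of 345 and 414 in the nuclear libraries and 2112 and 2233 in the cytoplasmic ones. Both cytoplasmic libraries were at least 5.10 times the higher nuclear one. The log2 fold change was 2.52 with a standard error of 0.14 and a DESeq2 adjusted p of 2.97e-69. RBM22, which stands at the catalytic centre of the spliceosome, was at 532 and 548 in the nuclear and at 1718 and 1884 in the cytoplasmic libraries. That was a log2 fold change of 1.74 (standard error 0.13, DESeq2 adjusted p = 5.19e-37). RBM10, an X-linked regulator of exon skipping, was at 2096 and 2197 against 3752 and 4172. It was higher in the cytoplasmic fraction by 0.88 on the log2 scale (standard error 0.12, adjusted p = 9.33e-14). With equal library totals RBM10 did not pass, and stood at 0.22 with an adjusted p of 0.0855.

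The nuclear side of the splicing group held larger genes. RBM6, a tumour suppressor candidate of the short arm of chromosome 3, was at 6988 and 6777 in the nuclear and at 1306 and 1283 in the cytoplasmic libraries. Its log2 fold change of -2.41 (standard error 0.11, DESeq2 adjusted p = 2.72e-105) was the lowest of the tested members. RBM20, the splicing regulator of titin in heart muscle, was at 8753 and 7328 against 1575 and 1650. Its 2 nuclear libraries were both more than 4.44 times the higher cytoplasmic one, at -2.32 (standard error 0.12, DESeq2 adjusted p = 1.43e-78). RBM41, a relative of a protein of the minor spliceosome that removes the rare U12-type introns, was at 1496 and 1483 against 334 and 284. This was a log2 fold change of -2.27 (standard error 0.15, DESeq2 adjusted p = 8e-49). RBM25, which binds with U1 components and acts on BCL2L1 exon choice, was at 3429 and 3690 against 976 and 1060, and it was lower in the cytoplasmic fraction at -1.81 (standard error 0.12).

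RBM39 and RBM5 were also higher in the nuclear fraction, by less. RBM39, a splicing factor that also serves as a nuclear receptor coactivator, was at 7272 and 8194 in the nuclear and at 3682 and 3434 in the cytoplasmic libraries. The log2 fold change was -1.12 with a standard error of 0.11 and a DESeq2 adjusted p of 2.43e-22. RBM5 was at 3936 and 3935 against 2410 and 2269, a log2 fold change of -0.75 (standard error 0.11, adjusted p = 5.05e-11). Neither gene's fractions overlapped. The remaining splicing genes, RBM48, RBM4, RBM17 and RBM11, did not pass the threshold. Their log2 fold changes were 0.39, 0.11, -0.09 and -0.63, and RBM11 had an adjusted p of 0.047. RBM48 stood at -0.27 with equal library totals and still did not pass, while RBM4 (-0.55, adjusted p = 5.93e-06), RBM17 (-0.75, adjusted p = 7.95e-09) and RBM11 (-1.29, adjusted p = 1.46e-05) passed as nuclear.

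Nuclear RNA surveillance, exon junction and methylation genes were 7, of which 3 were cytoplasmic, 2 nuclear and 2 neither, or 2, 4 and 1 with equal library totals. RBM8A, also known as Y14, is a core protein of the exon junction complex, which is laid down upstream of exon junctions during splicing. It was at 561 and 657 in the nuclear and at 4180 and 3613 in the cytoplasmic libraries, a log2 fold change of 2.68 (standard error 0.13, DESeq2 adjusted p = 5.85e-87). Of the other genes of that complex, MAGOH was at 0.61 and CASC3 at 0.85, both called cytoplasmic, while MAGOHB, at 0.39 with an adjusted p of 0.0508, did not pass. EIF4A3, the helicase that clamps the complex on RNA, was at 620 and 710 in the nuclear and at 2432 and 2648 in the cytoplasmic libraries, or 1.93 on the log2 scale (standard error 0.13). So 3 of 4 listed partners were called cytoplasmic and 0 nuclear. MAGOH, MAGOHB and EIF4A3 span under 20 kb. Of protein-coding genes of that span with a mean over 50, 77.8% were called cytoplasmic and 6.63% nuclear. The calls of MAGOH and EIF4A3 among these 3 genes are near that share. CASC3 spans 31.9 kb, and of protein-coding genes spanning 20 to 60 kb with a mean over 50, 46.0% were cytoplasmic and 22.6% nuclear. Among the 3 partner calls, that of EIF4A3 alone remained with equal library totals. MAGOH then stood at -0.06 (adjusted p = 0.802) and CASC3 at 0.19 (adjusted p = 0.15), so that 1 of the 4 passed, and MAGOHB was at -0.27.

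The exosome adaptors were split. RBM7 is the RNA-binding part of the nuclear exosome targeting complex, with MTREX and ZCCHC8, and it was at 149 and 158 in the nuclear and at 372 and 337 in the cytoplasmic libraries. The log2 fold change was 1.21 with a standard error of 0.22 and a DESeq2 adjusted p of 6.55e-08. With equal library totals it stood at 0.54 with an adjusted p of 0.0203. Its partner ZCCHC8 was on the other side, at 1235 and 1367 against 728 and 647, a log2 fold change of -0.92 (standard error 0.14). The helicase MTREX overlapped between fractions at -0.03. RBM26 and RBM27 associate with the poly(A) tail exosome targeting connection, which is built on ZFC3H1. RBM26 was at 7141 and 7488 in the nuclear and at 1544 and 1415 in the cytoplasmic libraries, a log2 fold change of -2.30 (standard error 0.11, DESeq2 adjusted p = 3.49e-92). RBM27, at 1673 and 1713 against 1531 and 1377, had an adjusted p of 0.125, and it passed as nuclear with equal library totals (-0.88, adjusted p = 1e-11). ZFC3H1 was nuclear at -1.43 with a standard error of 0.13. Among the 3 listed adaptor partners, 2 were called nuclear and 0 cytoplasmic, where 28.4% and 35.6% of tested protein-coding genes were. With equal library totals MTREX passed as the third nuclear partner, at -0.70.

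RBM15 and RBM15B bring the N6-methyladenosine writer to its RNA targets, and their own RNAs differed most of all the pairs compared. RBM15B (chr3:51391285-51397908, plus strand), which has 1 exon and no intron, was at 657 and 768 in the nuclear and at 4756 and 5090 in the cytoplasmic libraries. Both cytoplasmic libraries were more than 6.19 times the higher nuclear one, and the log2 fold change was 2.79 with a standard error of 0.12 and a DESeq2 adjusted p of 2.99e-109. RBM15 (chr1:110338506-110346681, plus strand), with 3 exons, was at 3474 and 3337 against 2805 and 2857. At -0.27 with an adjusted p of 0.0275 it did not pass, though both nuclear libraries lay above both cytoplasmic ones. It passed as nuclear with centring on protein-coding genes (-0.38, adjusted p = 0.00128) and with equal library totals (-0.93, adjusted p = 1.41e-16). Of the 6 other writer genes, 2 were called nuclear, 0 cytoplasmic and 4 neither, where 28.4% of tested protein-coding genes were nuclear and 35.6% cytoplasmic. METTL14, the RNA-binding partner of METTL3, was at -0.70 and ZC3H13, which holds the complex in the nucleus, at -2.42, while METTL3, WTAP, VIRMA and CBLL1 lay between -0.09 and 0.45. With equal library totals METTL3, WTAP and VIRMA passed too, which made 5 nuclear, 0 cytoplasmic and 1 neither. RBM33, which binds methylated RNA with the demethylase ALKBH5, was nuclear, at 4613 and 4265 against 1579 and 1618, a log2 fold change of -1.47 (standard error 0.11).

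**Figure D3:**
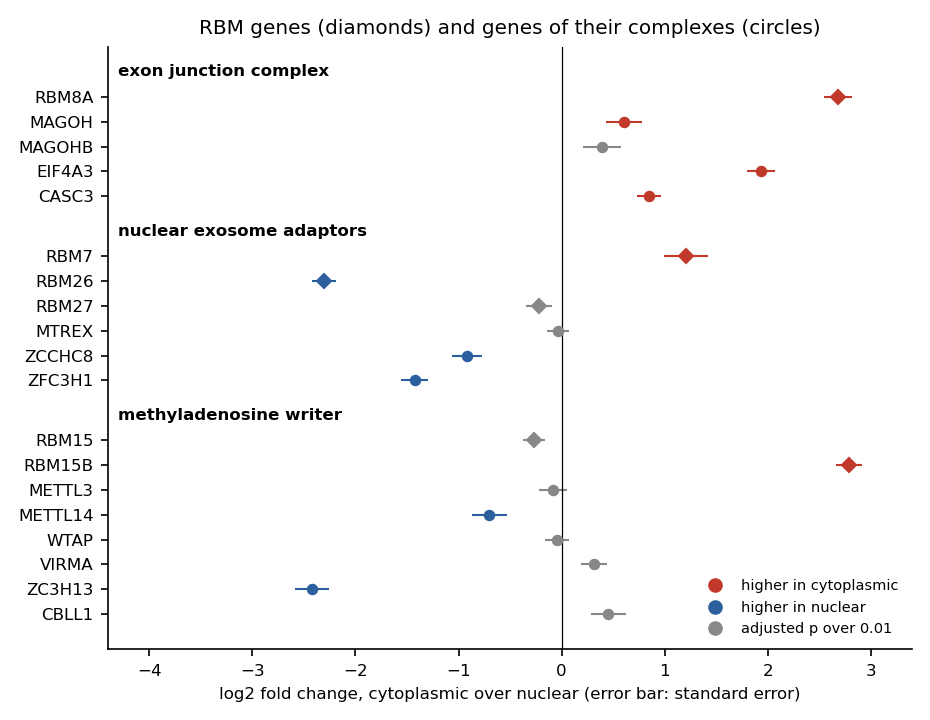
Log2 fold change, cytoplasmic over nuclear, of RBM genes (diamonds) and listed genes of the same complexes (circles), with the standard error as the bar. The exon junction genes lie above 0, from 0.39 for MAGOHB to 2.68 for RBM8A, though MAGOH and MAGOHB fall below 0 with equal library totals, while the other 2 complexes hold genes on both sides.

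The 3 ribosome synthesis genes gave 1 nuclear call and 0 cytoplasmic calls. With equal library totals all 3 were nuclear, where 8929 of all 23333 tested genes were. RBM28, the human relative of a yeast nucleolar protein of large subunit assembly, was at 2354 and 2444 in the nuclear and at 1630 and 1541 in the cytoplasmic libraries, or -0.60 on the log2 scale (standard error 0.12, DESeq2 adjusted p = 1.35e-06). RBM19, needed for pre-rRNA processing, was at 1371 and 1313 against 1296 and 1419. It was the only member with overlapping fractions, at 0.02 with a standard error of 0.13, and its sign turned to -0.65 with equal library totals and to -0.10 with centring on protein-coding genes. RBM34 was at 1024 and 1031 in the nuclear libraries and at 878 and 473 in the cytoplasmic ones. Its log2 fold change of -0.60 had a standard error of 0.43, with an adjusted p of 0.222. Fitted by limma without the shallower cytoplasmic library it was -0.23 (adjusted p = 0.109), and without the deeper one -1.12 (adjusted p = 0.00074), so 1 library decides its value. In GENCODE 44, 98.5% of the span of RBM34 lies under ARID4B, the largest overlap among the members, and overlapping stretches were taken out before counting. The part of that overlap in the spread was not tested.

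Among the 6 genes of mRNA stability and translation, 2 were cytoplasmic, 1 was nuclear, 2 did not pass and RBM46 had no adjusted p. RBM45 was nuclear as well with equal library totals or centring on protein-coding genes, which made 2 of each. RBM3, which is induced by cold and promotes translation, had the highest log2 fold change of the members. Its counts were 1152 and 1398 in the nuclear and 9692 and 8854 in the cytoplasmic libraries, a log2 fold change of 2.86 (standard error 0.12, DESeq2 adjusted p = 7.96e-116). CIRBP, the other cold-inducible protein of that kind, was also cytoplasmic at 1.06 (standard error 0.14). RBM38, a p53 target that binds the mRNA of CDKN1A, was at 307 and 298 against 1176 and 1260, a log2 fold change of 2.01 (standard error 0.15). Its relative RBM24 had few reads, with counts of 18 and 21 in the nuclear and 47 and 25 in the cytoplasmic libraries. At 1.51 with a standard error of 0.59 and a DESeq2 adjusted p of 0.0188 it did not pass.

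RBM47, a cofactor of the cytidine deaminase APOBEC1, was nuclear, at 337 and 351 against 117 and 115. The log2 fold change was -1.57 with a standard error of 0.23 and a DESeq2 adjusted p of 4.01e-11. APOBEC1 itself had 0 counts in both nuclear libraries and 1 in each cytoplasmic library, and was not tested, so no direction is given. RBM45, a protein of neuronal and stress-related aggregates, was at 345 and 343 against 246 and 256, and with an adjusted p of 0.0389 did not pass. RBM46, which acts on germ cell mRNA, had counts of 5 and 2 in the nuclear and 0 and 0 in the cytoplasmic libraries. A count of 0 allows up to 3 counts, or normalized counts of 3.52 and 3.98 in these 2 libraries, which is not below the nuclear level, so no difference was detectable at this depth. These limits cover counting error only.

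Of the 4 less described members, RBM18 alone was called. It was at 268 and 335 in the nuclear and at 708 and 676 in the cytoplasmic libraries, a log2 fold change of 1.20 (standard error 0.18, DESeq2 adjusted p = 5.54e-11). RBM12B, at 1112 and 1144 against 1231 and 1353, had an adjusted p of 0.196, and its log2 fold change of 0.20 became -0.47 with equal library totals, where it passed as nuclear (adjusted p = 0.000842). RBM44 had counts of 53 and 30 in the nuclear and 7 and 9 in the cytoplasmic libraries, with an adjusted p of 0.0319, or 0.00205 with equal library totals. RBM43 had 2, 6, 1 and 1 counts in the same order, too few for any statement on direction.

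Related members were then set side by side. RBM12 was not among the members found, so its planned pair with RBM12B was not compared. The difference between the log2 fold changes of 2 genes was taken with their combined standard error, as a description with no p. RBM15 and RBM15B, whose proteins were identical at 49.0% of aligned residues, differed by 3.06 with a combined standard error of 0.17. RBM23 and RBM39, at 69.6% identity, differed by 2.45 (combined standard error 0.17) and were called in opposite directions. RBM23, at 1176 and 1338 in the nuclear and 2986 and 3342 in the cytoplasmic libraries, was the cytoplasmic one at 1.33. RBM26 and RBM27, at 54.2% identity, differed by 2.09 (combined standard error 0.17), although their spans of 94.7 and 85.6 kb were alike. The smallest of these differences was 12.4 times its combined standard error.

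RBM5 stood between its relatives. It was above RBM6, with which it shares 40.7% of aligned residues, by 1.66 on the log2 scale (combined standard error 0.16). It was below RBM10, at 59.8% identity, by 1.63 (combined standard error 0.16), so that RBM5 and RBM10 were called in opposite directions. RBM5 (chr3:50088919-50119021) and RBM6 (chr3:49940007-50100045) follow each other on the plus strand and overlap, so reads of the shared stretch belong to neither after the authors' removal of overlaps.

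The nearly identical pair of the sequences above differed less. RBM4B was at 282 and 292 in the nuclear and at 550 and 505 in the cytoplasmic libraries, a log2 fold change of 0.88 (standard error 0.18, DESeq2 adjusted p = 2.47e-06). RBM4 was at 2300 and 2307 against 2378 and 2601, a log2 fold change of 0.11 with an adjusted p of 0.422. The pair differed by 0.77 with a combined standard error of 0.21. Read pairs that lie wholly within the identical stretches can be placed on either gene, and their part in this difference was not tested. With equal library totals RBM4B stood at 0.22 with an adjusted p of 0.295. RBM24 and RBM38, at 75.7% identity, differed by 0.50 with a combined standard error of 0.61, which is within error.

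**Figure D4:**
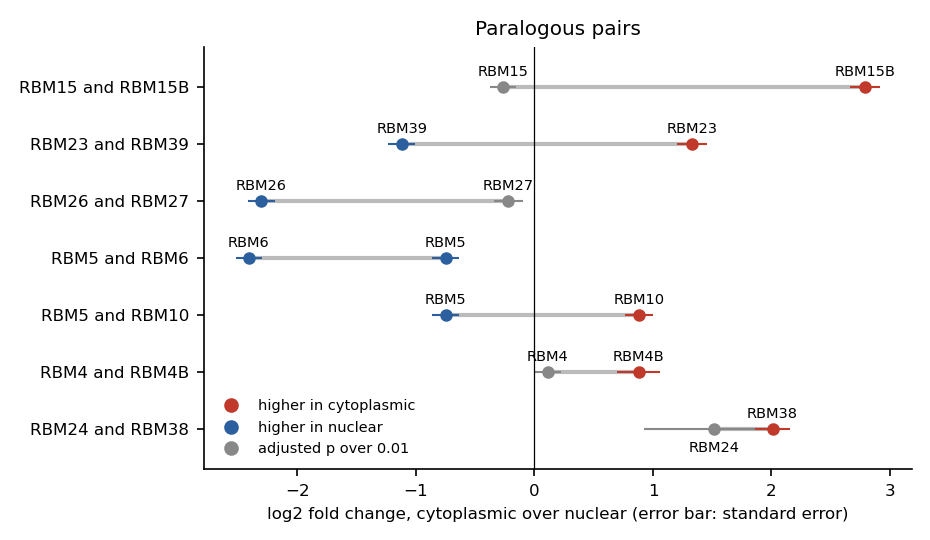
Log2 fold change, cytoplasmic over nuclear, of both genes of 7 related pairs, with the standard error as the bar. The pairs are ordered by their difference, from 3.06 for RBM15 and RBM15B at the top to 0.50 for RBM24 and RBM38.

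Members with a longer span had lower log2 fold changes, as protein-coding genes had in general. Span here is the distance from the first to the last annotated base, introns included, in GENCODE 44. Over the 34 tested members the Spearman correlation of log2 fold change with span was -0.761. Over the 31 members with a mean over 50 it was -0.782, and over 12103 other protein-coding genes with a mean over 50 it was -0.708. Members and genes are not independent replicates, and the points share the same 4 libraries. With exonic length in place of span, the correlation over the members was -0.457, and with exon number -0.454. With the mean normalized count it was -0.116.

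Among the 12 members with a mean over 50 and a span under 20 kb, 8 were called cytoplasmic and 0 nuclear. Protein-coding genes of that class were called cytoplasmic in 77.8% and nuclear in 6.63%. At the other end, 8 members spanned 60 kb or more, of which 6 were nuclear and 0 cytoplasmic, where protein-coding genes were nuclear in 65.8% and cytoplasmic in 11.5%. The 11 members in between gave 3 cytoplasmic and 4 nuclear calls, against 46.0% and 22.6%. The 4 members with the highest fold changes, RBM3, RBM15B, RBM8A and RBM42, spanned 6.12 to 8.66 kb.

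Each member was also set beside the 500 protein-coding genes nearest to it in span. Of the 31 members with a mean over 50, 12 lay above the median of their neighbours, and the median member was 0.59 below it on the log2 scale. RBM41, with a span of 56.9 kb, was the lowest against its neighbours, at -2.27 where they had a median of -0.10, and 2.80% of them lay below it. RBM15, at 8.18 kb, was 1.81 below a median of 1.55, and RBM11, at 12.2 kb, was 1.84 below its own. RBM3 was 1.16 above and RBM19, at 149.6 kb, 1.00 above. In all, 7 of the 31 lay outside the 10th to 90th percentile of genes of like span, RBM3 above and RBM15, RBM11, RBM25, RBM41, RBM26 and RBM6 below. By definition that range leaves out 10% of the neighbours at each end. The count is near that share over both ends together, though all but RBM3 lay at the lower end. RBM3, at 2.86 against a 90th percentile of 2.81, was past it by less than its standard error of 0.12. RBM15, at -0.27 against a 10th percentile of -0.16, was too, with a standard error of 0.11.

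**Figure D5:**
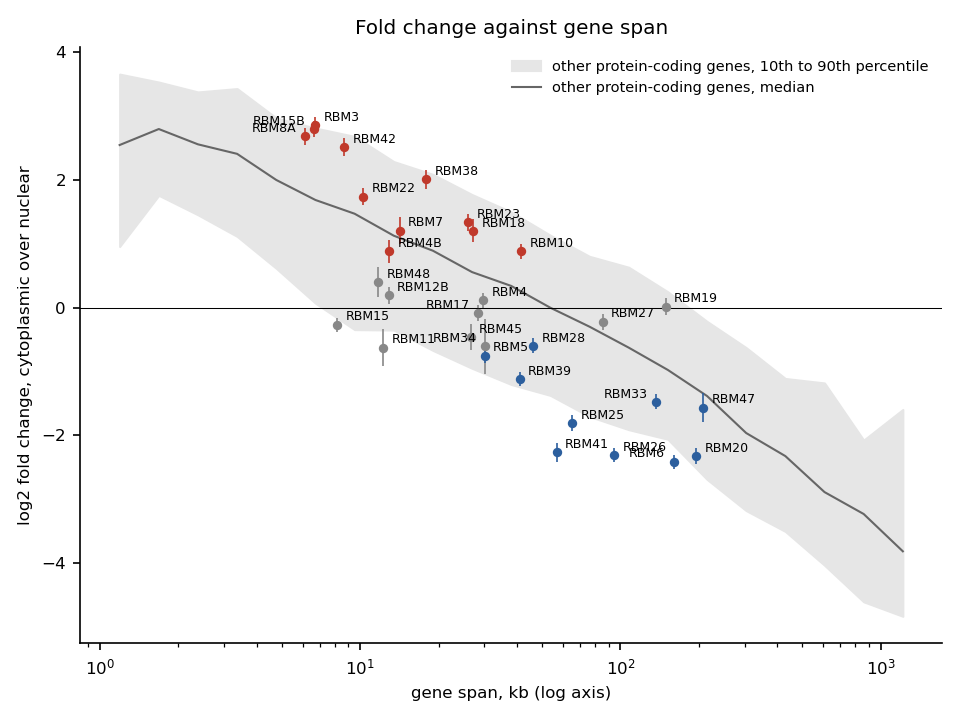
Log2 fold change, cytoplasmic over nuclear, against gene span on a log axis for the 31 RBM genes whose mean normalized count exceeded 50, with the standard error as the bar, red for cytoplasmic, blue for nuclear and grey for no call. The line and band give the median and the 10th to 90th percentile of other protein-coding genes by span, so 10% of those lie past each edge by definition. RBM3 lies above the band while RBM15, RBM11, RBM25, RBM41, RBM26 and RBM6 lie below it, RBM3 and RBM15 by less than their standard errors.

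Several members share ground with other genes in GENCODE 44, on either strand. Of the exonic bases of RBM8A, 84.4% lie under GNRHR2 and LIX1L-AS1, and of those of RBM12B 48.4% lie under other genes. RBM4 shares 38.5% and RBM5 35.4% of exonic bases, RBM15B 30.8% with DCAF1, and RBM38 30.0% with its antisense gene. How many bases of each gene remained in the annotation used for counting was not analysed here, and the part of these overlaps in the fold changes was not tested.

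Relatives outside the name rule were 9 genes, of which 4 were cytoplasmic, 3 nuclear and 2 neither, or 4, 5 and 0 with equal library totals. Among tested protein-coding genes 35.6% were called cytoplasmic and 28.4% nuclear. With equal library totals 3777 and 8929 of all 23333 tested genes were. RBMX, an X-linked splicing regulator, was at 4276 and 4954 in the nuclear and at 12649 and 11565 in the cytoplasmic libraries, a log2 fold change of 1.39 (standard error 0.12). PUF60, which helps recognise the 3′ splice site, was at 1.81 and RBMX2 at 1.40. On the nuclear side RNPC3, the minor spliceosome protein related to RBM41, was at 899 and 826 against 177 and 223, or -2.11 with a standard error of 0.18. RBMS3, which spans 1436 kb, was at -3.66 and its relative RBMS1 at -1.65, while RBMS2 overlapped between fractions at -0.02. ARMC7, the partner of RBM48 in minor intron splicing, overlapped too, with an adjusted p of 0.995, or 0.00252 and nuclear with equal library totals.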

How the data were processed

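RNA of 2 nuclear and 2 cytoplasmic fractions of HEK293T cells was sequenced. The authors aligned reads to hg38 with STAR, counted them with featureCounts 2.0.2 (minimum overlap 20 bases) over exons and introns of a GENCODE 34 annotation extended with NCBI genes and cleared of overlapping stretches and readthrough transcripts, and compared fractions with DESeq2. The deposited mean normalized count is a signal averaged over the 4 libraries. The log2 fold change with its standard error, the Wald score, the p-value and the adjusted p-value are the authors' DESeq2 output as deposited, used as they stand because the table has no column for a single library.

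Library counts were recovered as the whole numbers that give back the deposited mean, fold change and standard error under a negative binomial model. Of 23333 tested genes, 23108 (99.0%) had 1 solution, and the search stopped at a mean of 20000, above which 56 tested genes lay. Recovered rows held 78.2% of the normalized counts. On 400 made-up genes, 400 were recovered exactly. A library's fraction came from the fold change of genes with 1 count in all, and its replicate number is not known. Size factors were 1.34 and 1.19 for the nuclear and 0.853 and 0.755 for the cytoplasmic libraries. limma 3.58.1 (R 4.3.3) with a trend was fitted on log2 of the normalized count plus 0.5 and was tested on simulated data. Gene structure and sequences came from GENCODE 44 on hg38, aligned with Biopython 1.88. A gene was called at an adjusted p of at most 0.01.

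All members of the name rule were named, and outside them values were given only for listed partners, relatives and fraction markers. Members and lists were chosen with earlier results of these data known. The alternatives tried were other scalings, filters, adjustments and thresholds, limma, both possible pairings, and leaving out each library.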

Additional observations from a re-analysis of the deposited data

How the results depend on the processing

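Setting library totals equal lowered every log2 fold change by 0.66. The nuclear calls among members then rose from 10 to 20 and the cytoplasmic ones went from 11 to 8, and 18 of the 21 calls remained on their side. RBM7, RBM10 and RBM4B lost theirs. Over all 23333 tested genes the cytoplasmic calls went from 6046 to 3777 and the nuclear ones from 6175 to 8929. The members' median became -0.82, and -0.26 with centring on protein-coding genes, -0.086 with a mean over 50 and -0.22 with no filter. Signs turned under equal totals for RBM48 (-0.27), RBM12B (-0.47), RBM4 (-0.55) and RBM19 (-0.65), and under centring for RBM19 (-0.10). RBM19 ran from -0.050 to 0.081 in limma when 1 library was left out, below 0 without the shallower library of either fraction. With Bonferroni adjustment 4039 genes were nuclear, since it passes fewer. The members' Spearman correlation of log2 fold change was -0.457 with exonic length in place of span, and -0.782 with span for a mean over 50.

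In limma, leaving out 1 library gave 0 to 12 cytoplasmic and 0 to 11 nuclear members, and 0 to 5321 and 0 to 6478 genes in all. The counts of 0 came without either nuclear library, where the lowest adjusted p of a member was 0.0132 without the deeper and 0.0116 without the shallower one. At an unadjusted p under 0.05 limma then gave 11 cytoplasmic members in both cases and 12 and 14 nuclear ones. Over all 4 such fits it gave 11 to 13 and 12 to 15 members, and 6698 to 7449 and 6447 to 8927 genes. All 21 called members kept their direction without each library. The cause was not tested. The edgeR fit was planned only for deposited counts of single libraries, which were not given, so it was not run. Another count model was not run on the recovered counts either. The limma fits at an unadjusted p and per member were chosen after seeing the data. Which replicate number each recovered library carries is not known, so both possible pairings were fitted in limma as a replicate block, an alternative chosen after seeing the data. They gave 12 cytoplasmic members each and 12 or 14 nuclear ones, and 6352 or 7147 and 7021 or 8103 genes. At an unadjusted p under 0.05 the nuclear members were 15 or 16. Depth limits RBM24, RBM43, RBM44 and RBM46, with 1 to 53 counts where any were found.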
